A study of Arabidopsis thaliana with 16 samples.

Results

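Small RNA bound to the Argonaute protein AGO9 of Arabidopsis thaliana was examined at the loci where it was found at day 35 but hardly at all at day 7. A locus was a row of the deposited table on chromosomes 1 to 5 (an annotated gene or transposable element, TE). It was selected on its levels, and kept where all reads of 21, 22, 23 and 24 nt together came to less than 1 RPM (reads scaled to the library's total) in each of the 8 day 7 libraries and to at least 10 RPM in both AGO9 libraries of day 35. This rule kept 262 of the 65089 nuclear rows, which formed 258 loci once overlapping rows were merged, or 230 once rows at most 1000 bases apart were merged as well. Because these values chose the rows, the day 7 values and the AGO9 values of day 35 are given as a description and carry no test. Another 6453 nuclear rows also had at least 10 RPM in both AGO9 day 35 libraries but reached 1 RPM in some day 7 library, and these are used below for comparison, so that the 262 rows were 3.90% of all rows above the AGO9 minimum.

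The 8 day 35 libraries came from inflorescence meristems, floral meristems and young flower buds, and the 8 day 7 libraries from shoot apices, so tissue differs with age throughout. For either age there were 2 libraries of each of 4 kinds, all in the col-0 background. The AGO9 immunoprecipitate (IP) came from a pAGO5::GFP-AGO9 line, in which AGO9 tagged with green fluorescent protein (GFP) is driven by the AGO5 promoter rather than its own. The AGO5 IP came from a pAGO5::GFP-AGO5 line, and the GFP-only IP from a p35S::GFP line. Input RNA, not immunoprecipitated, came from the AGO5 line in replicate 1 and from the AGO9 line in replicate 2. The labels do not say whether replicates were separate plantings, so the spread between them may be technical. All values are per bulk sample, in which fewer cells of a type and less RNA per cell cannot be told apart.

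In plants, RNA polymerase IV and the RNA-dependent RNA polymerase RDR2 make double-stranded precursors that the Dicer-like enzyme DCL3 cuts into 24 nt small interfering RNAs (siRNAs). Proteins of the AGO4 group, to which AGO9 belongs, carry these siRNAs and guide DNA methylation to matching sequence, mostly TEs and other repeats. AGO9 is best known from the ovule, where it acts in cells around the future germline, and AGO5 from germline and male reproductive tissue. Reproductive tissues of Arabidopsis also hold siRNA loci that are silent in vegetative organs, among them loci of the tapetum, the cell layer that nurses the pollen, and some of their siRNAs match genes elsewhere in the genome imperfectly.

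The sequences that follow were read from the TAIR10.1 RefSeq genome by the coordinates of the table, and all are written 5′ to 3′. The first is a whole row of 78 bases, AT4TE11990, a TE outside genes, shown because it was the shortest of the 10 loci with the most AGO9-bound RNA. The second is AT1G06417, a long non-coding RNA gene of 281 bases from the same 10 loci. Their GC contents were 33.3% and 30.2%.
AT4TE11990 (chr4:2559325-2559402, plus strand): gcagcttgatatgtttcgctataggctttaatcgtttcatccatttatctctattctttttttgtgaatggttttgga
AT1G06417 (chr1:11139772-11140052, minus strand): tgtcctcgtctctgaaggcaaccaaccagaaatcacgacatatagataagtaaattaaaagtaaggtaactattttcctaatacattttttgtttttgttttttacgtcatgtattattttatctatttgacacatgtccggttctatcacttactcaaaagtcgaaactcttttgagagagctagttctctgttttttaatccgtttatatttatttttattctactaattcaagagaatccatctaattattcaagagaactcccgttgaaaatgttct
Pairs of rows on different chromosomes that shared sequence are shown next, with the bases that differ between the 2 members of a pair in capitals. UGE2 (AT4G23920), a UDP-glucose 4-epimerase of galactose metabolism, and AT3G28530, annotated as a UDP-glucose 4-epimerase on chromosome 3, matched over 78 bases of coding sequence with 2 differences.
AT3G28530 (chr3:10690637-10690714, plus strand): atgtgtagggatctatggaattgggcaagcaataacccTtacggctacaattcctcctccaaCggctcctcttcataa
AT4G23920 (chr4:12433589-12433666, plus strand): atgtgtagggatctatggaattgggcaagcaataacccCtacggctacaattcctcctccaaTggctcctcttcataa
The TEs AT2TE29245 and AT1TE40015, both outside genes, matched over 76 bases with 2 differences.
AT2TE29245 (chr2:7183647-7183722, plus strand): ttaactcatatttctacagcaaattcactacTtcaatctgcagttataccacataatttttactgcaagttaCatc
AT1TE40015 (chr1:12305684-12305759, plus strand): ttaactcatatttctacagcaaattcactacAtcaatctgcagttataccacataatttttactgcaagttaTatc

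The 262 rows took 5.96% and 5.07% of the AGO9 IP libraries of day 35, 1.30% and 1.72% of the AGO5 IP libraries, 0.235% and 0.285% of the GFP-only libraries and 0.436% and 0.524% of the input libraries. Means were 5.52% ± 0.627 for AGO9, 1.51% ± 0.297 for AGO5, 0.260% ± 0.0351 for GFP alone and 0.480% ± 0.0627 for input (SD, n = 2 each). Both AGO9 libraries lay above both AGO5 libraries, and both AGO5 libraries above both inputs, while the GFP-only libraries lay below input. The AGO5 and the GFP-only difference from input each gave an exact two-sided permutation p of 0.333, the smallest that 2 libraries against 2 can give, so the design could not reach 0.05. At day 7 the rows summed to 56.7 and 62.7 RPM in the AGO9 IP, 25.3 and 22.7 RPM in the AGO5 IP, 16.4 and 8.76 RPM in the GFP-only IP and 35.1 and 37.0 RPM in input. No read was found in any day 7 library at 27 of the 262 rows, and the highest day 7 value of a row had a median of 0.288 RPM. Over the 8 day 7 libraries together a row had a median of 27.5 reads and at most 226.

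Reads of 24 nt led at these loci. In the AGO9 IP of day 35 they made up 87.0% and 68.9% of the reads in the 262 rows, in the AGO5 IP 47.9% and 40.1%, in the GFP-only IP 40.6% and 53.1% and in input 66.6% and 70.4%. The gap between the AGO9 replicates was shared by their whole libraries, in which 24 nt reads made up 89.6% and 67.1% of nuclear reads. In input the 24 nt share of the 262 rows exceeded that of all nuclear rows, which was 49.0% and 56.3%. In the AGO5 IP it exceeded 34.5% and 30.2%, and in the GFP-only IP 19.5% and 30.2%. In the AGO9 IP it lay below that of all nuclear rows in replicate 1 and above it in replicate 2. The AGO9 and input libraries overlapped in this share. It differed from input by -24.5 points for AGO5 and by -21.6 points for GFP alone, without overlap, at the smallest p the design allows (exact two-sided permutation p = 0.333 each). Reads of 22 nt made up 28.9% and 28.8% of the AGO5 reads in these rows, against 11.1% and 10.3% in input, close to their shares of all nuclear reads, 29.4% and 27.8% in the AGO5 IP and 11.4% and 9.37% in input.

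**Figure D1:**
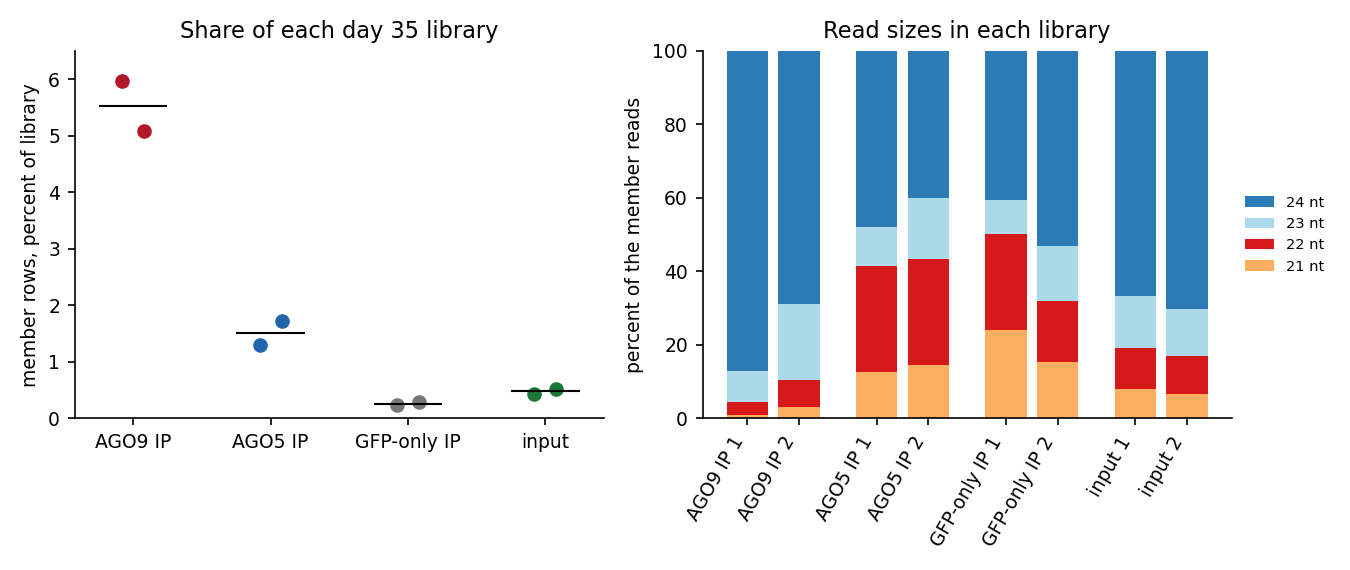
Left, share of each day 35 library (percent of RPM) taken by the 262 rows, 2 points per group and a line at their mean; right, sizes of the reads in these rows in each library (percent of reads, stacked). The AGO9 points lie at 5.96% and 5.07%, above every other library, and 24 nt is the largest size class in all 8 libraries.

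AGO9-bound RNA was concentrated in a few loci. The median row had 51.8 RPM (mean of the 2 AGO9 libraries), 72 rows had at least 100 RPM and 12 at least 1000 RPM. The 10 highest rows held 52.4% and 49.4% of the AGO9 reads of the 262 rows, 47.1% and 53.4% of the AGO5 reads, and 30.6% and 33.0% of the input reads. Between the AGO9 libraries the higher value was a median of 1.67 times the lower one, with a maximum of 6.28 times.

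The highest locus was AT2TE52215, a TE at chr2:11993118-11993984 outside genes. It had 6834 and 4394 RPM in the AGO9 IP, 337 and 422 RPM in the AGO5 IP, 114 and 114 RPM in the GFP-only IP and 255 and 226 RPM in input. Its AGO9 values lay above all other libraries, and its AGO5 values above input by 0.65 ± 0.32 (log2(RPM + 1), SE), which did not pass the test (limma, adjusted p = 0.151). The adjoining TE AT2TE52210 had 893 and 423 RPM in the AGO9 IP, against 27.9 and 27.0 RPM in input.

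Of the long non-coding RNA genes, AT4G05995 (chr4:7592500-7592885) had 4345 and 4035 RPM in the AGO9 IP, 2173 and 2895 RPM in the AGO5 IP, 234 and 289 RPM in the GFP-only IP and 323 and 469 RPM in input. AT3G05025 (chr3:9707053-9707354) had 4486 and 3268 RPM in the AGO9 IP, 1491 and 2918 RPM in the AGO5 IP, 229 and 338 RPM in the GFP-only IP and 271 and 310 RPM in input. AT1G06417, printed above, had 2552 and 2336 RPM in the AGO9 IP, 579 and 864 RPM in the AGO5 IP, 39.1 and 162 RPM in the GFP-only IP and 131 and 155 RPM in input. At all 3 genes both AGO9 and both AGO5 libraries lay above both inputs, and the annotation gives them no function. The AGO5 difference from input passed the test at each, at 2.68 ± 0.34, 2.84 ± 0.37 and 2.31 ± 0.52 in that order (log2, SE; limma, adjusted p = 0.000446, 0.000459 and 0.00688).

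AT1G49260, annotated as a mechanosensitive ion channel-like protein (chr1:18225870-18226967), had 2842 and 3592 RPM in the AGO9 IP, 703 and 1103 RPM in the AGO5 IP, 74.1 and 69.2 RPM in the GFP-only IP and 84.3 and 97.9 RPM in input. AGO5 exceeded input there by 3.26 ± 0.33 (log2, SE; limma, adjusted p = 0.000233). AT3G23645, a transcribed pseudogene (chr3:8509762-8510165), had 3226 and 3180 RPM in the AGO9 IP, 234 and 481 RPM in the AGO5 IP, 43.9 and 105 RPM in the GFP-only IP and 67.1 and 139 RPM in input. With the 3 non-coding genes, these were the 5 highest gene rows. The TE AT4TE22775 had 2076 and 1139 RPM in the AGO9 IP, 145 and 150 RPM in the AGO5 IP, 14.5 and 47.8 RPM in the GFP-only IP and 35.4 and 53.2 RPM in input. The peroxidase gene AT1G77100 had 1519 and 1232 RPM in the AGO9 IP, 47.8 and 56.3 RPM in the AGO5 IP, 9.22 and 35.6 RPM in the GFP-only IP and 12.7 and 57.0 RPM in input, so that its AGO5 and input libraries overlapped. AT4TE11990, the 78-base TE, had 1933 and 735 RPM in the AGO9 IP, 140 and 54.9 RPM in the AGO5 IP, 41.6 and 76.9 RPM in the GFP-only IP and 73.1 and 103 RPM in input, and its AGO5 libraries also overlapped input. AT3G46160, a protein kinase gene, had 1433 and 1160 RPM in the AGO9 IP, 294 and 264 RPM in the AGO5 IP, 75.7 and 51.4 RPM in the GFP-only IP and 83.1 and 123 RPM in input. AT4G05995, AT3G05025, AT2TE52215, AT1G06417 and AT3G46160 were also the 5 highest loci in input.

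**Figure D2:**
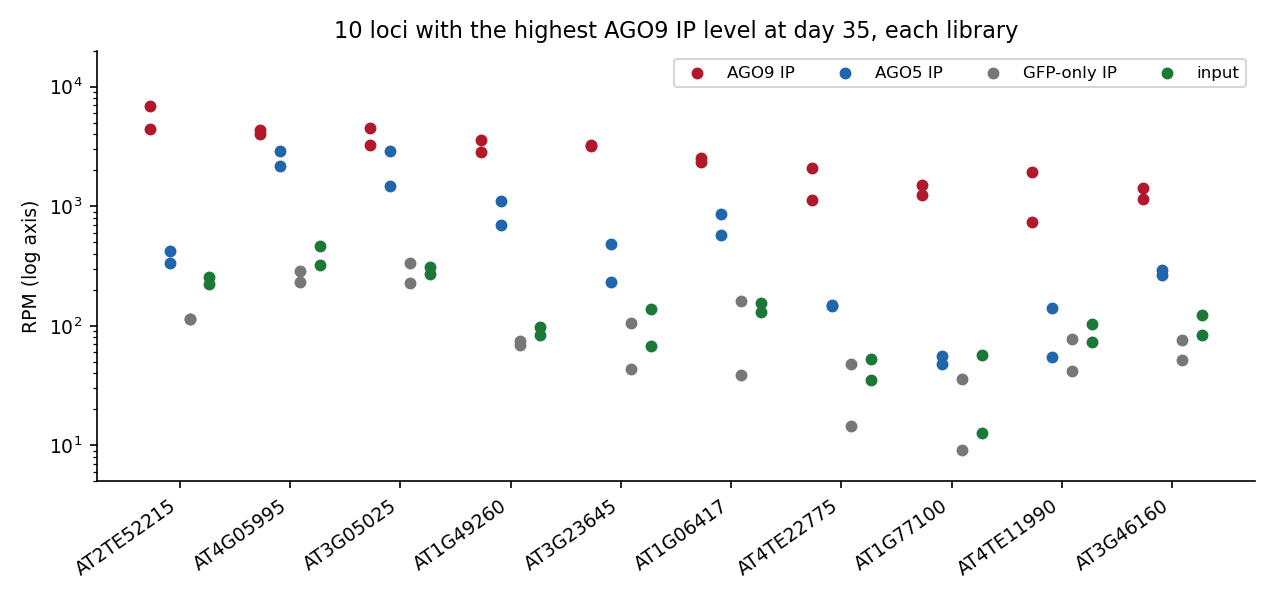
RPM (log axis) of the 10 loci with the highest AGO9 level at day 35, each point a library, with AGO9 IP, AGO5 IP, GFP-only IP and input from left to right within a locus. The AGO9 points lie above all others at each locus, while AGO5 lies well above input at AT4G05995 and AT3G05025 and overlaps it at AT1G77100 and AT4TE11990.

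The AGO9 level of these loci stood further above input than that of the comparison rows. AGO9 exceeded input by a median of 2.93 (log2(RPM + 1), means of 2 libraries) over the 262 rows and by -0.13 over the 6453 comparison rows. The medians of the AGO9 level itself were close, 51.8 and 45.5 RPM, while the medians in day 35 input were 7.81 and 55.0 RPM. Both sets passed the same AGO9 minimum and differ by the day 7 limit, which also held day 7 input under 1 RPM. The gap between the sets is therefore not free of the rule, and it was not tested. The AGO9 and input libraries did not overlap, with AGO9 the higher, at 236 of the 262 rows, against 17.9% of the 17020 rows tested. The same held for AGO9 against GFP alone at 249 rows (53.6% of those tested) and against AGO5 at 217 rows (42.1%). The rule asked for a minimum in AGO9, so these counts describe the rows that it chose. In day 35 input itself, 100 of the rows reached 10 RPM in both libraries, 238 reached 1 RPM in both and 12 stayed under 1 RPM in both. Of the 262 rows 187, or 71.4%, were higher in input replicate 2, from the AGO9 line, than in replicate 1, from the AGO5 line, against 63.5% of the comparison rows and 52.8% of the rows tested. The part of the line in this was not tested. Over the 262 rows the Spearman correlation of the mean level with input was 0.471 for AGO9, 0.704 for AGO5 and 0.684 for GFP alone. These values describe rows that share their input libraries. Of the 3 kinds of IP only AGO9 was held above a minimum at day 35, so its value is not on the same footing.

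**Figure D3:**
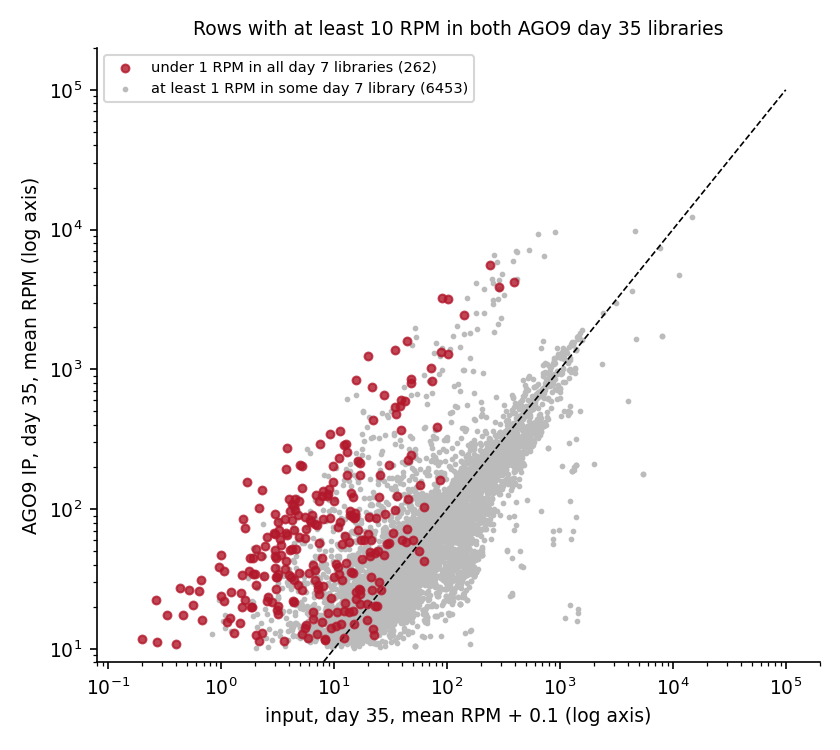
Mean RPM in the AGO9 IP (vertical log axis) against mean RPM in input plus 0.1 (horizontal log axis) at day 35, for the 262 rows and the 6453 comparison rows, with a dashed line at equality. Of the 262 rows, 254 lie above the line, against 41.8% of the comparison rows.

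TEs were 142 of the 262 rows and genes 120. The TE share, 54.2%, was close to that of all nuclear rows, 47.9%, and below the 88.7% of the comparison rows. Of the TE rows 122 lay outside genes and 20 in gene exons, and of the gene rows 92 overlapped no TE and 28 did. Protein-coding genes were 97 rows, long non-coding RNA genes 14, transcribed pseudogenes 5, and miRNA genes and other RNA genes 2 each. The 14 long non-coding RNA genes held 21.4% of the AGO9 level of the 262 rows, the protein-coding genes 35.3% and the TEs 36.5%. Chromosome 1 had 79 of the rows, or 30.2%, against 24.8% of nuclear rows, and chromosome 2 had 34, or 13.0%, against 17.6%.

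The TE rows had a median length of 199 bases, against 1155 in the TE rows of the comparison set and 309 in all nuclear TE rows. Their median GC content was 27.3%, against 34.8% and 29.5% in these sets, so they lay nearer to TEs in general than to the comparison rows. The day 7 limit applies to a row and not to a base, so a short row meets it more easily. Within 100000 bases on each side of the row, TEs covered a median of 19.4%, against 48.7% around the comparison TEs and 30.1% around all nuclear TEs. Repeats were measured as the share of a row's 24-base words found elsewhere in the genome. This share had a median of 0.396% over the 259 of the 262 rows long enough, against 48.8% over the comparison rows. For other nuclear rows it was not measured. It was 0 at 114 of the 259 rows and above 50% at 12. Only exact matches were counted there, and not the inexact ones described below. Gene rows had a median length of 1299 bases, against 1149 in the comparison set and 1775 in all nuclear gene rows, and a median of 9.28% TE cover around them, against 18.4% and 7.48%.

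Many of the loci lay near each other. With gaps of at most 20000 bases, 109 of the 262 rows formed 48 neighbourhoods of at least 2 rows. The largest had 6 rows, between positions 4619725 and 4638330 of chromosome 1, and held 5 genes of 1 family of hypothetical proteins (DUF1262) and a TE. AT1G13480, AT1G13490, AT1G13500 and AT1G13550 had between 34.6 and 38.8 RPM in AGO9 replicate 1 and between 53.6 and 56.5 RPM in replicate 2, with 94.3% to 97.3% of these reads at 24 nt. AT1G13520 had 25.2 and 12.8 RPM, with 70.3% at 24 nt. All 5 were higher in the AGO5 IP than in input (limma, adjusted p from 0.000736 for AT1G13480 to 0.00753 for AT1G13500). AT1G13490 and AT1G13500 matched over 1384 bases at 89.2% identity, and reads could be shared between such copies. On chromosome 3 the pseudogene AT3G23645, the kinase-like gene AT3G23650 and 3 TEs lay between positions 8509762 and 8512444 and summed to 4663 RPM in the AGO9 IP. AT3G23650 had 972 and 682 RPM in the AGO9 IP, 324 and 335 RPM in the AGO5 IP, 46.1 and 46.4 RPM in the GFP-only IP and 58.8 and 88.3 RPM in input, counted over the 102 bases that no other row covers. On chromosome 4 the genes AT4G24973 and AT4G24974, of the plant self-incompatibility protein S1 family, lay beside the transporter-like gene AT4G24980. AT4G24974 had 1071 and 611 RPM in the AGO9 IP, 44.8 and 41.2 RPM in the AGO5 IP, 22.4 and 15.9 RPM in the GFP-only IP and 11.02 and 19.8 RPM in input.

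Sequence was also shared between distant rows. Among the 262 rows, 59 matched another of them over at least 50 bases at 80% identity or more, in 37 pairs and 25 groups of at most 5 rows. Of these pairs 16 lay within 50000 bases and 21 lay farther apart or on different chromosomes. UGE2 had 123 and 159 RPM in the AGO9 IP, 16.4 and 14.3 RPM in the AGO5 IP, 5.87 and 0 RPM in the GFP-only IP and 3.71 and 6.59 RPM in input. AT3G28530, printed beside it above, had 98.1 and 119 RPM in the AGO9 IP, 14.1 and 5.49 RPM in the AGO5 IP, 5.87 and 0 RPM in the GFP-only IP and 3.003 and 5.28 RPM in input. The pair held 15 identical 24-base words, and the counts do not tell whether reads are shared between the rows. AT2TE29245 had 943 and 657 RPM in the AGO9 IP and AT1TE40015 had 117 and 136 RPM, with 25 identical 24-base words. AT2TE52215, the locus with the most AGO9-bound RNA, resembled the pectin lyase-like gene AT1G11370 over 104 aligned columns with 18 differences, in an exon outside the coding sequence, and shared no 24-base word with it. Unlike AT2TE52215, AT1G11370 was higher in the AGO5 than in the AGO9 libraries. It had 24.8 and 37.6 RPM in the AGO9 IP, 54.0 and 77.9 RPM in the AGO5 IP, 0 and 0.240 RPM in the GFP-only IP and 4.36 and 4.31 RPM in input.

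The leading size in the AGO9 IP was 24 nt at 252 of the 262 rows, 23 nt at 2 and 22 nt at 8. All 8 rows led by 22 nt were protein-coding genes: EXO70C1 (AT5G13150), a subunit of the exocyst that tethers secretory vesicles, LSU4 (AT5G24655), a gene named for its response to low sulfur, NIP1;2 (AT4G18910), a channel of the aquaporin family, AT1G02770, AT3G32920, AT4G18070, AT4G20160 and AT5G59350. More than 50% of the AGO9 reads were of 22 nt at 3.05% of the 262 rows, and at 5 of the 6453 comparison rows, or 0.0775%. All 13 of these rows hold the 22-base window described below, so the shares do not count separate measurements. These 8 genes were not similar to each other or to any other of the 262 rows by the 50-base criterion. A window of 22 bases of nearly the same sequence was found in all of them, and in AT1G35270, a transcribed pseudogene, and AT1G70270, annotated as a transcription factor. The window was sought after the sizes had been seen. It is printed for the 10 rows of the set and for the exact match outside the rows, with capitals where a base differs from the one most windows have at that position.
AT1G02770 (chr1:605882-605903, plus strand): aagaagaaAaacaacaacaaca
AT1G35270 (chr1:12941589-12941610, plus strand): aagaagaagaacaacaaTaaca
AT1G70270 (chr1:26464475-26464496, plus strand): aagaagaagaaAaacaacaaca
AT3G32920 (chr3:13489168-13489189, plus strand): aagaaTaagaacaacaacaaca
AT4G18070 (chr4:10030882-10030903, plus strand): aagaGgaagaacaacaacaaca
AT4G18910 (chr4:10366275-10366296, plus strand): aagaagaCgaacaacaacaaca
AT4G20160 (chr4:10891088-10891109, plus strand): aagaagaagaacaacaaTaaca
AT5G13150 (chr5:4174420-4174441, minus strand): aagaagaaCaacaacaacaaca
AT5G13150 (chr5:4174423-4174444, minus strand): Gagaagaagaacaacaacaaca
AT5G24655 (chr5:8441203-8441224, minus strand): aagaagaagaacaacaacaaAa
AT5G59350 (chr5:23941274-23941295, plus strand): aagaagaagaacaacaacaaAa
Exact match outside the table rows (chr1:4506663-4506684, plus strand): aagaagaagaacaacaacaaca

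The nuclear genome held 18 places within 1 base of this sequence, 2 of them exact, and 15 rows of the table contained such a place, of which 10 belonged to the 262. In AGO9 replicate 1 each of the 15 rows had between 41.6 and 91.2 RPM of 22 nt reads, with a median of 42.0, and in replicate 2 between 19.2 and 47.6 RPM, with a median of 19.9. In input the 22 nt reads of these rows lay between 0.992 and 3.54 RPM in replicate 1 and between 2.10 and 6.97 RPM in replicate 2. EXO70C1 and AT3G27090, the rows with 2 places each, had 86.1 and 91.2 RPM of 22 nt reads in AGO9 replicate 1. AT3G27090, MYC3, BSK7, AT5G14370 and AT5TE37815, the 5 rows with a place that were not among the 262, reached 1 RPM in some day 7 library. Because their sequence is shared, the near-equal 22 nt levels of these 15 rows cannot be taken as separate measurements, and the counts do not tell from which place the RNA came. The exact match on chromosome 1 lay in no row. Without their 22 nt reads, 5 of the 10 rows would have fallen below 10 RPM in an AGO9 library, and 12 of the 262 in all.

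**Figure D4:**
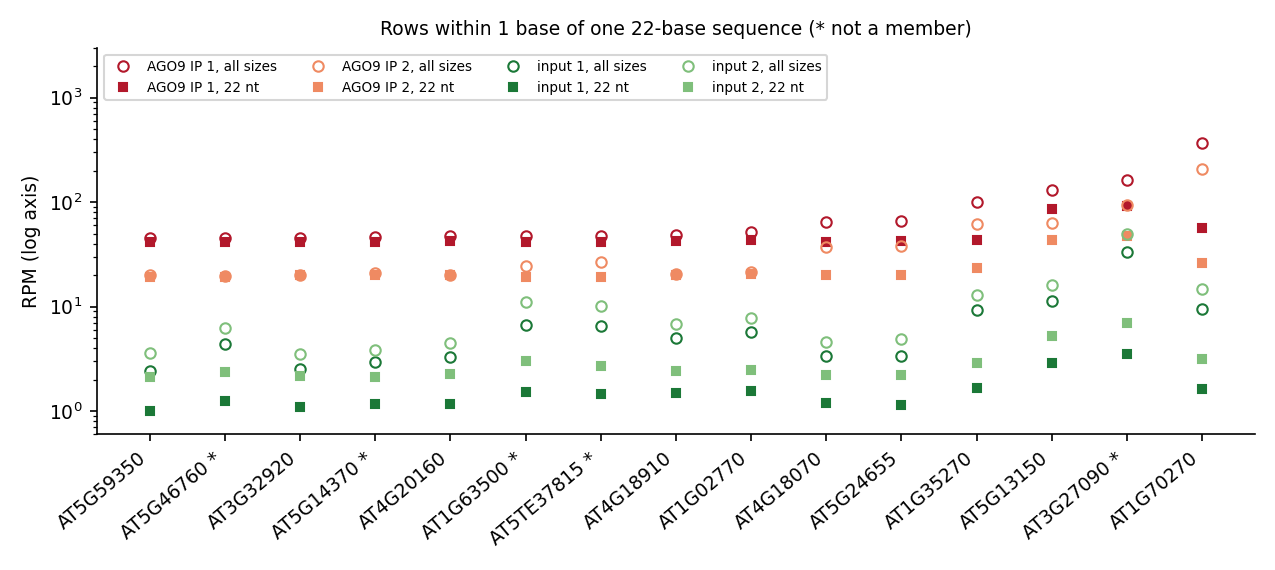
RPM (log axis) at day 35 of the 15 rows that contain a place within 1 base of the 22-base sequence; open circles are reads of all sizes, filled squares 22 nt reads, and an asterisk marks rows outside the 262. The 22 nt squares of AGO9 replicate 1 lie near 42.0 RPM and those of replicate 2 near 19.9 RPM at most rows, with higher values at EXO70C1 (AT5G13150), AT3G27090 and AT1G70270.

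F-box proteins, which select targets for ubiquitination, were encoded by 9 of the 97 protein-coding rows, or 9.28%, against 2.38% of protein-coding rows in the genome, a group noted after the values had been seen. At 4 of them a shared 22-base window was again found, printed here with the differing bases in capitals.
AT1G50880 (chr1:18861548-18861569, minus strand): tttcagacctGacatcaaaact
AT3G47150 (chr3:17359295-17359316, minus strand): tttcagacctaacatcaaaact
AT4G13060 (chr4:7620378-7620399, plus strand): tttcagacctCacatcaaaact
AT4G38870 (chr4:18133005-18133026, plus strand): tttcagacctaacatcaaaact
Exact match outside the table rows (chr4:18256334-18256355, minus strand): tttcagacctaacatcaaaact
No other row of the table held this window within 1 base. AT4G38870 had 2953 and 1315 reads in the AGO9 IP, and AT3G47150, AT1G50880 and AT4G13060 had 1482, 1449 and 1423 reads in AGO9 replicate 1 and 433, 412 and 410 reads in replicate 2. In input they had 834 reads (AT4G38870), 357 (AT3G47150), 442 (AT1G50880) and 438 (AT4G13060) in replicate 1. Their reads in the AGO9 IP were mostly of 24 nt, at 63.0% for AT4G38870 and 76.7% to 78.1% for the other three. Because these 4 rows share sequence, their levels cannot be taken as separate measurements, nor the 9 rows as separate cases. The counts do not tell from which place the RNA came.

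Both miRNA genes of the set had low AGO5 values. MIR1887 (AT4G07005, chr4:11370263-11370325) had 238 and 61.3 RPM in the AGO9 IP, 0 and 4.01 RPM in the AGO5 IP, 18.2 and 0 RPM in the GFP-only IP and 66.4 and 49.3 RPM in input. It was lower in the AGO5 IP than in input by a log2 difference of -4.70 ± 1.13 (SE; limma, adjusted p = 0.0093). MIR4240 (AT4G06915, chr4:10711558-10711762) had 22.98 and 132 RPM in the AGO9 IP, 0.537 and 0.698 RPM in the AGO5 IP, 3.07 and 1.92 RPM in the GFP-only IP and 6.37 and 7.55 RPM in input, a difference of -2.30 ± 0.60 between AGO5 and input (adjusted p = 0.0142 in the same fit). The precursor of MIR1887 is printed with its annotated mature miRNA in capitals, and the mature miRNA of MIR4240 with bases 2 to 8, the seed, in capitals.
AT4G07005 (chr4:11370263-11370325, plus strand): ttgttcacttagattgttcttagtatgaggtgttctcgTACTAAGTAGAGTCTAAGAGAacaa
AT4G06915 (chr4:10711712-10711732, minus strand): tGACTAGAcccgtaacattac
The annotated mature miRNAs are of 21 nt, while 95.3% of the AGO9 reads at MIR1887 were of 24 nt and 60.4% of those at MIR4240 of 23 nt. MIR4240 matched its neighbour IRT1 (AT4G19690), the iron transporter of the root surface, over 55 bases at 85.5% identity. IRT1 had 49.3 and 100 RPM in the AGO9 IP, 1.31 and 3.31 RPM in the AGO5 IP, 26.3 and 0.240 RPM in the GFP-only IP and 9.77 and 11.9 RPM in input, so its AGO5 libraries lay below both inputs without passing the test (adjusted p = 0.179 in the same fit). In edgeR's quasi-likelihood test on reads recovered from the RPM values, neither miRNA gene passed for AGO5 against input.

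The AGO5 level of these rows was tested next against input and GFP alone, because the rule used no AGO5 value of day 35. Row totals do not tell whether AGO5 and AGO9 carried the same RNA. The fit took a row's variance from all 16 libraries, and the rule had held the 8 day 7 values of these rows under 1 RPM. Its adjusted p-values are therefore not free of the rule. The differences may not be free of it either. The rule also limited day 7 input, and it asked for a high level of AGO9, which the AGO5 promoter drives as well. AGO5 exceeded input at 62 of the 262 rows (limma, adjusted p under 0.05), or 23.7% of them, where 3.84% of the 17020 rows tested did, and lay below input at 19 rows, where 24.2% of all rows did. With the day 35 libraries alone in the fit, AGO5 exceeded input at 25 rows, where 1.86% of all rows did, and lay below it at 2 (12.5%). The median difference between the AGO5 IP and input was 0.48 (log2(RPM + 1)) over the 262 rows and -0.65 over all rows tested, 1.13 apart. Without input replicate 1 the counts were 25 higher (204 of all 16910 rows tested) and 5 lower (10.9% of all rows), and without input replicate 2 they were 45 (2.01%) and 9 (15.1%). edgeR on recovered reads called 34 higher and 0 lower, where it called 6.06% and 6.26% of all rows. With 24 nt reads alone 32 of the 256 rows that passed the filter were higher and 34 lower, where 1.67% and 35.2% of all rows were. With 21 and 22 nt reads alone 40 of 165 were higher and 0 lower, where 3.19% and 0.603% of all rows were, and the lower calls thus moved with read size over all rows as well. The AGO5 IP shared its input libraries with the AGO9 description above. Against GFP alone, AGO5 was higher at 161 rows, where 24.5% of all rows were, and lower at none (5.26% of all rows). With the day 35 libraries alone in the fit it was higher at 97 rows (17.1% of all rows) and lower at 0 (2.77%). Median differences from GFP alone were 2.14 over the 262 rows and 0.58 over all rows, 1.57 apart. With each library centred on its median, AGO5 exceeded input at 33 rows (1.48% of all rows) and lay below it at 1 (0.999%), and exceeded GFP alone at 53 rows (3.33%) and lay below it at 7 (11.2%). With quantile normalization AGO5 exceeded input at 108 rows and lay below it at 6, where 12.7% of all rows were higher and 12.9% lower. With GFP-only replicate 1 left out, 7 rows lay below GFP alone (13.0% of all rows), with replicate 2 left out 8 (11.8%), and with AGO5 replicate 1 left out 1 (3.97%). AGO5 exceeded input at 46 of the 120 gene rows, or 38.3%, where 7.15% of all nuclear gene rows tested did, and at 16 of the 142 TE rows, or 11.3%, where 2.63% of all nuclear TE rows did. It lay below input at 4 gene rows (14.7% of all gene rows) and 15 TE rows (28.1% of all TE rows). Genes thus had the larger share of higher calls in the background as well, and the difference between genes and TEs was not tested. Of the 14 long non-coding RNA genes, 7 exceeded input, where 13.5% of the 229 such genes tested did, and none lay below (18.8%), with median differences of 1.80 and -0.11 over these sets.

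**Figure D5:**
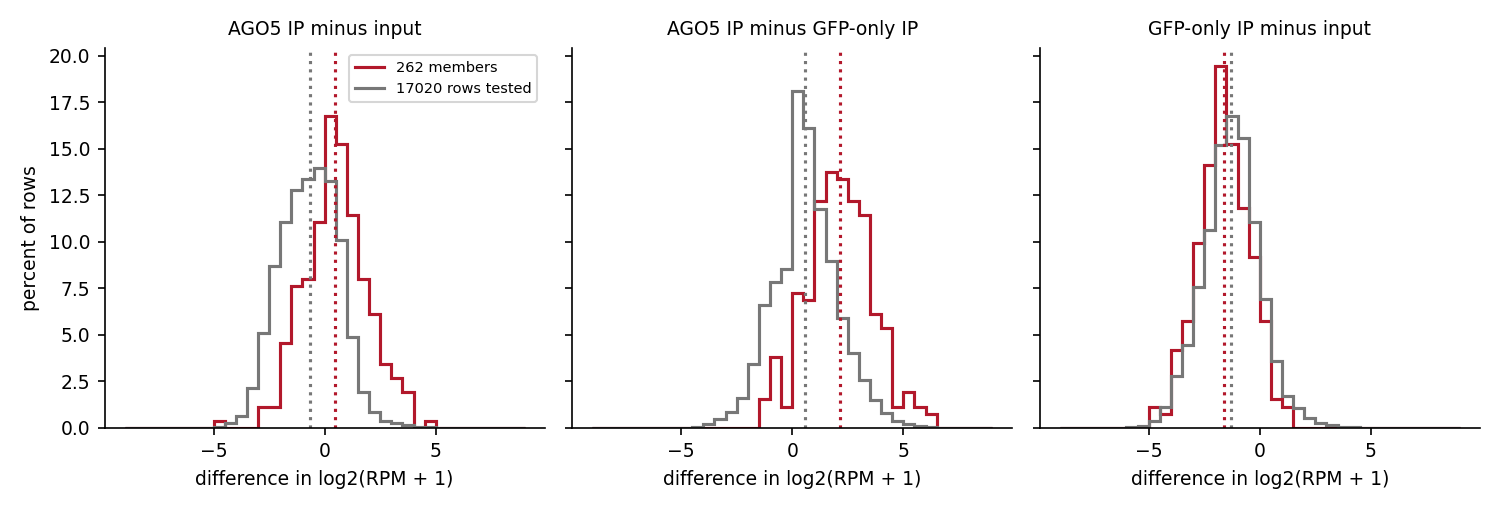
Distribution (percent of rows) of the differences in log2(RPM + 1) at day 35 for the 262 rows and for all 17020 rows tested, with dotted lines at the medians. The medians of the 262 rows and of all rows are 0.48 and -0.65 for AGO5 IP minus input, 2.14 and 0.58 for AGO5 IP minus GFP-only IP, and -1.60 and -1.27 for GFP-only IP minus input.

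The largest AGO5 excesses over input were at AT1G08773, AT5TE62045, AT1G04923, AT3G51642 and AT3G00880. AT1G08773, a long non-coding RNA gene, had 13.2 and 10.2 RPM in the AGO9 IP, 51.0 and 19.1 RPM in the AGO5 IP, 0 RPM in both GFP-only libraries and 0.0850 and 0.112 RPM in input, a difference of 4.88 ± 0.40 between AGO5 and input (log2, SE; limma, adjusted p = 0.000111). AT5TE62045, a TE of 79 bases, had 169 and 341 RPM in the AGO9 IP, 155 and 244 RPM in the AGO5 IP, 23.5 and 0 RPM in the GFP-only IP and 7.51 and 18.4 RPM in input. AT1G04923, also a long non-coding RNA gene, had 467 and 729 RPM in the AGO9 IP, 398 and 823 RPM in the AGO5 IP, 9.501 and 13.7 RPM in the GFP-only IP and 30.5 and 54.0 RPM in input. Its AGO9 and AGO5 libraries overlapped, and AGO5 exceeded input by 3.78 ± 0.45 (log2, SE; limma, adjusted p = 0.000435). AT3G51642 and AT3G00880 matched over 326 bases at 96.0% identity. AT3G51642 had 48.6 and 53.6 RPM in the AGO9 IP, 48.3 and 50.6 RPM in the AGO5 IP, 5.59 and 0.240 RPM in the GFP-only IP and 2.41 and 3.45 RPM in input, and AT3G00880 had 91.1 and 83.6 RPM in the AGO9 IP, 77.4 and 77.4 RPM in the AGO5 IP, 6.99 and 9.61 RPM in the GFP-only IP and 3.88 and 6.95 RPM in input.

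Below input stood, beside MIR1887, the TEs AT3TE45920, AT5TE05440, AT5TE31880 and AT1TE29065. AT3TE45920, a row of 21 bases and so shorter than most of the reads counted there, had 76.6 and 168 RPM in the AGO9 IP, 3.04 and 0 RPM in the AGO5 IP, 0 RPM in both GFP-only libraries and 11.3 and 18.3 RPM in input (log2 difference between AGO5 and input -2.94 ± 0.58 SE; limma, adjusted p = 0.00331). AT5TE05440 had 16.4 and 14.6 RPM in the AGO9 IP, 0 and 0.959 RPM in the AGO5 IP, 0 RPM in both GFP-only libraries and 8.33 and 6.99 RPM in input. AT5TE31880 had 17.2 and 14.9 RPM in the AGO9 IP, 6.39 and 0.523 RPM in the AGO5 IP, 2.79 and 11.5 RPM in the GFP-only IP and 19.9 and 19.1 RPM in input. Both of its AGO9 libraries lay below both inputs. AT1TE29065 had 11.6 and 21.02 RPM in the AGO9 IP, 0 and 0.785 RPM in the AGO5 IP, 5.03 and 0 RPM in the GFP-only IP and 7.17 and 5.62 RPM in input. These 5 rows, MIR1887 included, were named on the condition that both AGO5 libraries lay below both inputs. At 4 of them the AGO9 mean was above the input mean.

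Against GFP alone the largest AGO5 differences were at AT4G01240, AT4TE25410, AT1G11370, AT2TE29355 and AT1G04923. AT4G01240, a methyltransferase gene, had 27.9 and 71.9 RPM in the AGO9 IP, 64.5 and 111 RPM in the AGO5 IP, no read in the GFP-only IP and 21.4 and 27.0 RPM in input. AT4TE25410, a TE of 23 bases, had 103 and 147 RPM in the AGO9 IP, 69.8 and 94.4 RPM in the AGO5 IP, no read in the GFP-only IP and 5.92 and 11.4 RPM in input. With 3 reads taken as the floor in each GFP-only library, AGO5 was at least 112-fold higher at AT4G01240 and at least 105-fold higher at AT4TE25410 (limma, adjusted p = 1.955e-05 and 9.075e-06). AT2TE29355, a TE of 46 bases, had 185 and 93.3 RPM in the AGO9 IP, 59.3 and 81.1 RPM in the AGO5 IP, 1.12 and 0 RPM in the GFP-only IP and 6.74 and 11.3 RPM in input. These rows were named on the condition that both AGO5 libraries stood above GFP alone. Both AGO9 libraries also stood above GFP alone at all of them, and at AT4G01240 the AGO9 and AGO5 libraries overlapped each other. Over the 262 rows the AGO5 level was a median of 0.169 times the AGO9 level, and at 31 rows the AGO5 mean was the higher one. The largest such ratio, 6.73, was at AT1G62760, a plant invertase or pectin methylesterase inhibitor gene, which had 10.9 and 14.3 RPM in the AGO9 IP, 93.4 and 76.1 RPM in the AGO5 IP, 13.4 and 22.4 RPM in the GFP-only IP and 17.1 and 27.6 RPM in input.

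The GFP-only IP showed the share of these rows in a pull-down without a tagged Argonaute. It does not give the amount of RNA recovered, because RPM is scaled to each library's total. It lay below input at 131 of the 262 rows, where 44.5% of all rows tested did, and above input at 1 row (1.10% of all rows). Its median difference from input was -1.60 over the 262 rows and -1.27 over all rows. With the day 35 libraries alone in the fit, it lay below input at 71 rows (29.8% of all rows) and above at 0 (0.797%). With each library centred on its median it lay below input at 1 row (0.805% of all rows) and above at 7 (5.66%), and with quantile normalization below at 25 (6.83%) and above at 13 (4.38%), so this direction depends on the scaling. Without GFP-only replicate 1 it lay above input at 13 rows (5.63% of all rows), without replicate 2 at 4 rows (3.93%), and without input replicate 2 it lay below input at 86 rows (29.9%). No read was found in either GFP-only library at 86 of the 262 rows, 99 rows stayed under 1 RPM in both, and 30 reached 10 RPM in both. The GFP-only libraries were the shallowest of the series, and 39.8% and 53.5% of all rows tested had no read in them.

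Rows near the limits of the rule show where it cut. Just inside the day 7 limit lay AT2TE02720 at 0.985 RPM and AT5TE56210 and AT5G07945 at 0.974 RPM each in their highest day 7 library, and just outside it AT1G33950 at 1.003 RPM, AT1TE39785 at 1.004 RPM and NLP7 at 1.01 RPM. The highest day 7 library of the 3 rows inside was an AGO9 IP. Just inside the AGO9 minimum lay AT5TE33755, AT2TE17350 and AT1G08773 at 10.03, 10.12 and 10.2 RPM in their lower AGO9 library, and just outside it AT1G47885, AT3G07225 and AT3TE40680 at 9.86, 9.83 and 9.78 RPM.

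Total read assignments ranged from 3578524 to 53379641 in the day 35 libraries and from 13810392 to 99594348 in the day 7 libraries, so the smallest level given by 3 reads ranged from 0.0301 to 0.838 RPM. These floors cover counting error only. The miRNAs that mark age followed the labels in input: the 12 genes of MIR156 and MIR157, which mark the juvenile phase, summed to 274 and 735 RPM at day 35 and to 4637 and 4476 RPM at day 7, and the 5 MIR172 genes, which mark the adult phase, to 392 and 321 RPM and to 63.5 and 72.6 RPM. The miRNA genes MIR822, MIR829 and MIR839, listed as a check of the AGO9 IP, summed to 270 and 466 RPM in the AGO9 IP of day 35. They summed to 138 and 41.3 RPM in the AGO5 IP, 22.4 and 32.7 RPM in the GFP-only IP and 25.7 and 41.5 RPM in input. In the AGO9 IP 2 of the 3 genes reached 1 RPM, and the highest gene had 179 and 438.5 RPM. Of the genes of the siRNA machinery, 23 could be matched by name and 0 were among the 262 rows. All 6879 nuclear rows whose bases are all covered by other rows had no read in any library, whereas 52914 of the other 58210 rows had reads. Reads that overlapped more than 1 row were therefore not assigned, whichever the strand, and 61 of the 262 rows shared part of their bases in this way, so their levels stand only for the part of the row that no other row covers.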

How the data were processed

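Small RNA was sequenced from 16 libraries, 2 for each of 4 kinds of sample at day 7 and at day 35. The authors deposited 1 table of RPM values for annotated genes and TEs, by read size from 21 to 24 nt and combined. Per the submitters' processing notes the tools included cutadapt 1.18, Bowtie2 2.3.5.1 and featureCounts of Subread 2.0.1, and the build was TAIR10; their settings are not given in the sources used here. The combined column of AGO5 day 35 replicate 1, deposited on another scale and treated as a score, was not used, and the 4 sizes were summed in every library.

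Differences were tested with limma 3.58.1 in R 4.3.3 on log2(RPM + 1), in which fold changes of low rows are understated. The fit had 8 groups and 16 libraries, and Benjamini-Hochberg adjustment ran over 17020 rows with a mean of at least 1 RPM. All of the 262 rows passed this filter, which the AGO9 minimum had them do. The fit was tested on simulated data. The members, lists and tests were chosen with earlier results of these data known. Values of AGO9 at day 35 and of day 7 chose the members and were not tested. They did enter the row variances of the fit, and so the adjusted p-values of the other contrasts. Rows named are the 10 loci highest in AGO9, up to 5 in each direction for the AGO5 contrasts, the 5 highest in input, the 5 highest gene rows, the miRNA genes and the 3 nearest to each limit. Those for the AGO5 contrasts had the largest differences among rows with an adjusted p under 0.05 in limma and no overlap between the libraries compared. Others were chosen after their values were seen. Read counts were recovered from the RPM steps (100% of values whole in every library, within 0.02 reads). edgeR 4.0.16 and DESeq2 1.42.0 were run on 15 libraries, without AGO9 day 7 replicate 2, the deepest. Similar rows were sought with blastn 2.17.0 and windows by a scan of the TAIR10.1 RefSeq genome. Alternatives were pseudocount, filter, scaling, size class, test, libraries and limits.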

Additional observations from a re-analysis of the deposited data

How the results depend on the processing

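The set grew or shrank with its limits, to 165 rows at under 0.5 RPM in each day 7 library and 399 at under 2 RPM; with 22 nt reads left out of the AGO9 minimum, an alternative chosen after seeing the data, it was 250. AGO5 exceeded input at 33 rows after median centring, 108 after quantile normalization, 25 with the day 35 libraries alone, 32 with 24 nt reads, 40 with 21 and 22 nt reads and 34 by edgeR, and at 25 to 50 without 1 library. It lay below input at 5 with a filter at a mean of 10 RPM, 1 after median centring, 6 after quantile normalization, 2 with the day 35 libraries alone, 34 with 24 nt reads, 0 with 21 and 22 nt reads, 0 by edgeR and 2 by DESeq2, and at 5 to 17 without 1 library. AGO5 exceeded GFP alone at 92 of 141 with the filter at 10 RPM (24.8%), 53 after median centring (3.33%) and 97 with the day 35 libraries alone (17.1%). It did so at 91 of 165 with 21 and 22 nt reads (18.3%) and 104 by edgeR (23.1%). AGO5 lay below GFP alone at 7 after median centring (11.2%), 9 after quantile normalization (8.85%) and 1 by DESeq2 (9.96%). GFP alone exceeded input at 0 without a filter (0.248%), with the day 35 libraries alone (0.797%) and with 24 nt reads (0.505%). It exceeded input at 7 after median centring (5.66%), 13 after quantile normalization (4.38%) and 5 by DESeq2 (4.26%). It lay below input at 55 with the filter at 10 RPM, 1 after median centring, 25 after quantile normalization, 71 with the day 35 libraries alone, 8 with 21 and 22 nt reads, 54 by edgeR, 73 by DESeq2 and 86 to 166 without 1 library. Over all rows tested these counts moved too, with 235 rows above input in the AGO5 IP for 24 nt reads and 2194 by DESeq2. The cause of these shifts was not tested, beyond the smaller number of rows or libraries that some alternatives hold. Same-numbered day 35 libraries deviated together little (correlations from -0.0117 to 0.081), so the replicate block says nothing of pairing. With this block AGO5 exceeded input at 63 rows (4.36%) and lay below it at 18 (24.5%). The 24 nt shares kept within 1 SD under the alternatives run. Among the AGO5 results of named rows, over all settings tried, 87 were no longer past the threshold and 11 newly passed it. None past the threshold changed direction, while 19 that passed it in neither fit changed sign. Libraries with 1 sample left in a group were assumed to vary like the others, and the shallow GFP-only libraries limit what can be called near 1 RPM.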
